A study of Mus musculus with 15 samples.

Results

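The Cyp2d genes encode a family of cytochrome P450 enzymes, which in the mouse lie next to each other on chromosome 15 among many pseudogene copies. Here 9 of them were considered: Cyp2d9, Cyp2d10, Cyp2d11, Cyp2d12, Cyp2d13, Cyp2d22, Cyp2d26, Cyp2d34 and Cyp2d40. Members were the rows of the count table that carry one of these symbols. 8 of the 9 were matched to a row, and all 8 passed the filter on low counts, so they are 8 of the 17655 genes tested and of the 55573 rows. Cyp2d13 was not analysed here.

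Liver RNA came from 15 mice aged 8 weeks, namely 3 females and 3 males of the WT genotype, and 5 females and 4 males of the ESR1KO genotype. All of them carried the strain label B6N(Cg)-Esr1tm4.2Ksk/J. ESR1KO mice were homozygous for a deletion in Esr1, the gene of estrogen receptor alpha, and WT mice were the littermate controls. The deletion is present in every organ and from conception, including the gonads and the pituitary, and such mice are known for raised testosterone in both sexes, so a difference between genotypes need not arise in the liver. The RNA is from whole liver, in which fewer cells of a type and less RNA per cell cannot be told apart.

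P450 enzymes are heme proteins of the endoplasmic reticulum that insert an oxygen atom into drugs, steroids and fatty acids, using electrons delivered by P450 oxidoreductase. Humans rely on a single functional gene of this family, CYP2D6, which clears many antidepressants, beta blockers and opioids. Cyp2d9 is the best known sex-biased member in mice: its product is the testosterone 16-alpha-hydroxylase of male liver, and its male pattern depends on the pulsed growth hormone secretion of males. The question here was how each member differs between the sexes, and whether loss of ESR1 moves it in females, in males or in both.

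On the GRCm38 build the 8 members spanned 424 kb, at chr15:82370527-82794294. Starting at the low-coordinate end, the order was Cyp2d22, Cyp2d11, Cyp2d10, Cyp2d9, Cyp2d12, Cyp2d34, Cyp2d40 and Cyp2d26. Cyp2d9 and Cyp2d12 are on the plus strand and the other members on the minus strand. Cyp2d9, Cyp2d10, Cyp2d11, Cyp2d12 and Cyp2d34 form a close group, with 88.8% to 94.7% identity between their coding sequences. Cyp2d22 and Cyp2d26 were 77.3% to 81.5% identical to that group. These figures count gaps as differences. The coding model of Cyp2d40 has only 1014 bases, of which 844 to 865 matched the members of that group. Over the 1512 alignment columns this is 55.8% to 57.2%, a figure held down by the shorter model.

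The promoters of Cyp2d9 and of its nearest relatives, Cyp2d10 and Cyp2d11, are shown because these 3 genes share most of their sequence but not their response. Each run is the 250 bases before the gene start given by RefSeq for GRCm38.p6, written on the gene's own strand. Cyp2d9 is at chr15:82452127-82452376 on the plus strand, Cyp2d10 at chr15:82407195-82407444 and Cyp2d11 at chr15:82394023-82394272, both on the minus strand. Capitals mark TTCCGG, the reverse complement of CCGGAA, a core element bound by factors of the ETS family such as GABP.
Cyp2d9: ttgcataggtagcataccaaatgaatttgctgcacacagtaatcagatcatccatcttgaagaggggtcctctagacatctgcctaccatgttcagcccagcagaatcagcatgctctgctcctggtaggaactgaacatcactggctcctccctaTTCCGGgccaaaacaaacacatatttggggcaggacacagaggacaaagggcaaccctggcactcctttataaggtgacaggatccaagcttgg
Cyp2d10: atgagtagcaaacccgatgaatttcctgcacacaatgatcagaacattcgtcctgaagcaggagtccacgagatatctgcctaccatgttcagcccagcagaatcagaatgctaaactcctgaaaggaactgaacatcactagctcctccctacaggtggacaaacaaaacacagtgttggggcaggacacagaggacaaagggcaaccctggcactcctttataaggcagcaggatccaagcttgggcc
Cyp2d11: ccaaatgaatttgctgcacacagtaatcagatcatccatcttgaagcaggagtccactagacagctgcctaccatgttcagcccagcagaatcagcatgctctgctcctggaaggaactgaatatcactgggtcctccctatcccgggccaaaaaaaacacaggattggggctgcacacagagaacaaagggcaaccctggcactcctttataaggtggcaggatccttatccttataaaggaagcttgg
Cyp2d9 shared 82.3% of aligned positions with Cyp2d10 in this window, and 82.3% with Cyp2d11. The capital letters began 94 bases before the Cyp2d9 gene start, and the same letters were in neither relative on either strand. CCGGAA was added to the search after the promoters were seen, and 12% of 32851 RefSeq promoter windows of this length hold it. The other motifs searched on both strands were TTCNNNGAA for STAT5, CGGAAG for ETS factors and GABP, CAAAGTCCA and CAAAGTTCA for HNF4A, ATCGAT and ATTGAT for HNF6 and CUX2, and the full palindromic estrogen response element for ESR1. They are held by 7.02%, 13.6%, 0.384%, 0.335%, 0.728%, 6.72% and 0.0639% of promoter windows, in that order. None of those letters were in the windows of the 5 members that the promoter table lists, which are these 3, Cyp2d26 and Cyp2d40. Only exact letters were searched, with N for any base, so variants of these sites may be present. CGGAAG and CCGGAA overlap where both are present. A match is a description of letters, not of binding, and no methylation was measured in these files.

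Library totals ran from 27799061 to 78624766 counts, and levels are given as CPM, the counts set to a common library total after TMM scaling, which adjusts for the make-up of each library. A gene is said to have risen, fallen or passed where edgeR's quasi-likelihood test gave a Benjamini-Hochberg adjusted p under 0.05 over all 17655 genes. Fold changes are log2 with their standard error, and intervals are 95% intervals of single genes, without adjustment. The targeted gene was lower in ESR1KO livers, with Esr1 at 81.9 ± 6.79 CPM (SD, n = 3) in WT females, 36.1 ± 14.1 (n = 3) in WT males, 13.1 ± 4.01 (n = 5) in ESR1KO females and 11.8 ± 3.35 (n = 4) in ESR1KO males. The count covers the whole gene, so reads outside the deleted exon remain. ESR1KO females 1 and 2 stood apart: they were the lowest pair of their group for 6 of the 8 members, against 24.2% of all tested genes, and the highest pair for 26.7% of all tested genes. Their summed level of 6 pericentral hepatocyte markers, of which Cyp2e1 is the largest part, was 4211 and 4934 CPM. In the other ESR1KO females it was 7116 to 8733 CPM. Their periportal sums, 4349 and 4756 CPM, were also below those of the others (5413 to 6298 CPM). Their hepatocyte sums, made up mostly of Alb, were 92122 and 103631 CPM and above those of the others (77999 to 88790.1 CPM). Differences of the members that involve ESR1KO females are therefore also given without this pair where the value or call moves, and so are the calls of other named genes that were lost.

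Cyp2d9 was the member that changed most. In WT females it was at 55.9, 118 and 97.3 CPM, and in WT males at 1882, 1902 and 1426 CPM. In ESR1KO females it was at 507, 545, 1032, 743 and 1182 CPM, and in ESR1KO males at 1217, 1417, 1409.5 and 1613 CPM. The order of the group means was therefore WT males, ESR1KO males, ESR1KO females and WT females, and the highest neighbours, the males of the 2 genotypes, overlapped. Every ESR1KO female lay above every WT female and below every male of either genotype.

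Cyp2d9 RNA was 19.2-fold lower in WT females than in WT males (log2 fold change -4.27, SE 0.34, adjusted p = 3.35e-07, edgeR), and all 3 females were below all 3 males. It rose 8.88-fold in ESR1KO females compared to WT females (log2 fold change 3.15, SE 0.31, adjusted p = 7.15e-06), with all 5 above all 3. Without ESR1KO females 1 and 2 this change was 3.45 with adjusted p = 2.63e-06. By log2 fold change it ranked 40 from the top among the 17655 genes in that comparison.

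In males the genotype difference in Cyp2d9 was -0.30 (SE 0.28, interval -0.88 to 0.29, adjusted p = 0.752), and the groups overlapped. The genotype effect in females exceeded that in males by 3.45 on the log2 scale (SE 0.40, adjusted p = 7.12e-05), which is the test of the difference itself. With ESR1KO females 1 and 2 left out it was 3.75 (adjusted p = 2.31e-05).

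ESR1KO females did not reach the Cyp2d9 level of WT males in the main test (log2 fold change -1.12, SE 0.26, adjusted p = 0.0294), being lower in all 5 mice. This call was lost when single mice were left out, with adjusted p = 0.118, 0.111 and 0.0522 without WT male 1, 2 or 3, and 0.0509, 0.0739 and 0.059 without ESR1KO female 1, 2 or 4. Without ESR1KO females 1 and 2 together the difference was -0.82 (adjusted p = 0.0891). Between ESR1KO females and ESR1KO males the difference was -0.82 (SE 0.24, interval -1.34 to -0.30, adjusted p = 0.138), and the groups did not overlap. DESeq2 gave -0.83 with adjusted p = 0.0299, and omitting the low-count filter gave -0.81 with adjusted p = 0.0386. Without ESR1KO females 1 and 2 it was -0.52 with adjusted p = 0.37.

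**Figure D1:**
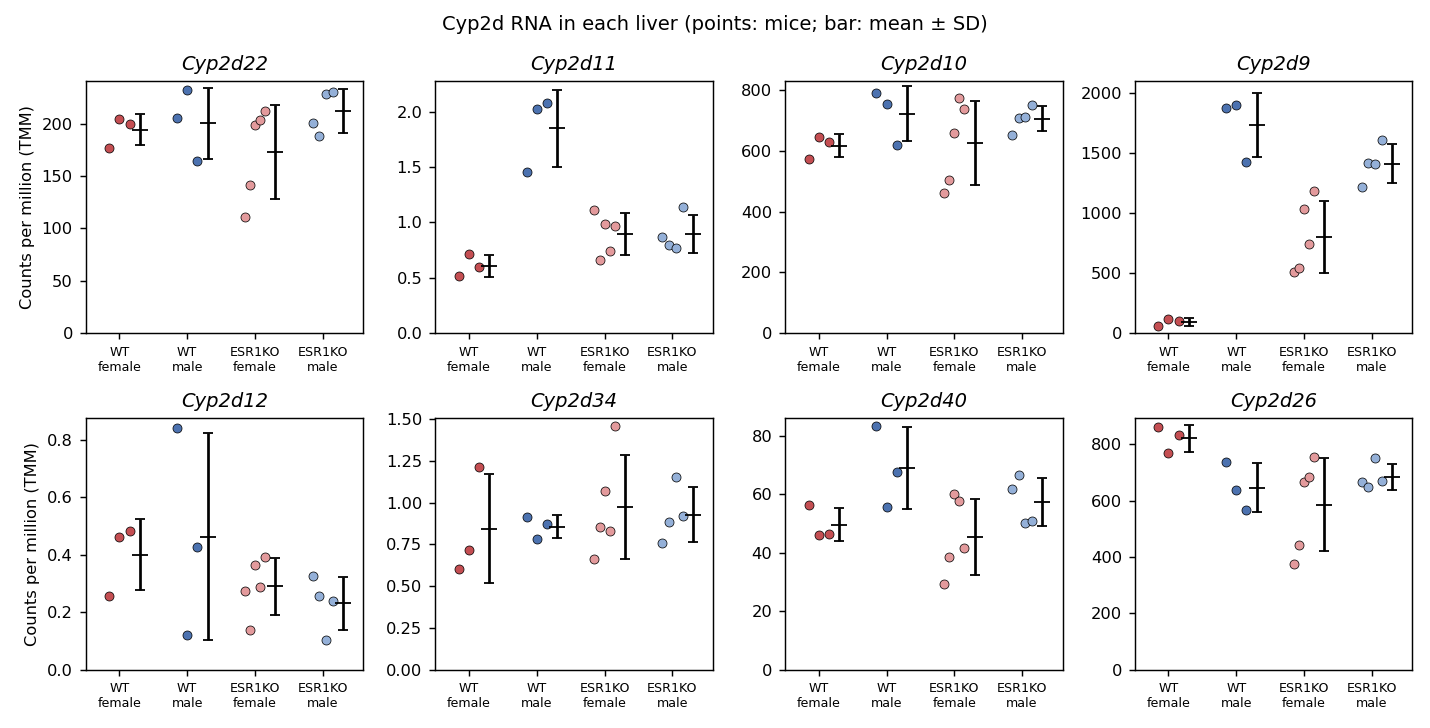
TMM-scaled CPM (vertical axis, linear, its own range in each panel) of the 8 Cyp2d members in each mouse, by group. Points are mice, and the bar beside them is the mean with its SD. Cyp2d9 is between 55.9 and 118 CPM in WT females, between 507 and 1182 CPM in ESR1KO females and at 1217 CPM or more in every male. Cyp2d11 is highest in WT males, while for Cyp2d10, Cyp2d12, Cyp2d22 and Cyp2d34 the groups next to each other in rank overlap.

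Cyp2d11, the member next to Cyp2d10 and a close relative of Cyp2d9, was the only other member that passed in any comparison. It was a low gene, with 24 to 131 reads in a library. The 3 WT females had 0.516, 0.715 and 0.596 CPM, and the 3 WT males 1.46, 2.03 and 2.08 CPM. Values were 1.11, 0.662, 0.99, 0.744 and 0.966 CPM in ESR1KO females and 0.867, 0.793, 0.766 and 1.14 CPM in ESR1KO males. WT males thus stood above every other mouse, and ESR1KO males overlapped ESR1KO females.

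In WT mice Cyp2d11 was lower in females by a log2 fold change of -1.62 (SE 0.24, adjusted p = 0.000394). Where Cyp2d9 differed by genotype in females, Cyp2d11 differed in males: it fell in ESR1KO males compared to WT males (log2 fold change -1.04, SE 0.21, adjusted p = 0.0194), lower in all 4 mice. That call was lost without WT male 2 (adjusted p = 0.0903), WT male 3 (0.123), ESR1KO male 1 (0.0595) or ESR1KO male 3 (0.0772). In females the genotype difference was 0.57 (SE 0.23, interval 0.09 to 1.05, adjusted p = 0.151), with overlapping groups.

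The genotype effect on Cyp2d11 differed between the sexes by 1.61 (SE 0.31, adjusted p = 0.00945). ESR1KO females were below WT males by -1.05 (SE 0.20, adjusted p = 0.00924, and 0.068 without WT male 3). ESR1KO females and ESR1KO males differed by 0.00 (interval -0.42 to 0.42). Leaving out ESR1KO females 1 and 2 gave 1.62 (adjusted p = 0.0118) for the difference between the sexes in the genotype effect, -1.05 (adjusted p = 0.0213) against WT males and 0.57 (adjusted p = 0.187) against WT females. Of all stretches of 100 bases in the Cyp2d11 transcript, 12.2% occur in another transcript as well, most often in Cyp2d10. The same share was 14.8% for Cyp2d10 and 9.86% for Cyp2d9. Per 1000 Cyp2d9 reads there were 0.774 to 1.46 Cyp2d11 reads in WT males, 0.544 to 0.713 in ESR1KO males, 0.817 to 2.2 in ESR1KO females and 6.06 to 9.23 in WT females. Per 1000 Cyp2d10 reads the figures were 1.84 to 3.35, 1.08 to 1.52, 0.962 to 2.42 and 0.899 to 1.11, in the same order. Whether reads of these paralogs entered the Cyp2d11 count was not tested, and its level is uncertain to that extent. How reads that match several genes were counted is not given in the sources used here.

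The remaining members of the close group did not pass in any comparison. Cyp2d10, an abundant member, was at 574 to 646 CPM in WT females, 620.5 to 791 in WT males, 460 to 773 in ESR1KO females and 653 to 752 in ESR1KO males. All 4 groups overlapped at neighbouring ranks. Its genotype difference was 0.02 (interval -0.31 to 0.36) in females and -0.03 (interval -0.38 to 0.32) in males, so a change of 1.5-fold or more lies outside both intervals. The female value was 0.23 without ESR1KO females 1 and 2 (adjusted p = 0.241). The difference between WT females and WT males was -0.23 (interval -0.60 to 0.15, adjusted p = 0.566). Cyp2d12 had 5 to 34 reads in a library and 0.104 to 0.84 CPM, and Cyp2d34 had 21 to 97 reads and 0.602 to 1.46 CPM. At this depth the intervals were wide, from -2.09 to -0.01 for Cyp2d12 in ESR1KO against WT males (adjusted p = 0.411), and from -0.46 to 0.72 for Cyp2d34.

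Cyp2d22 is regarded as the mouse gene nearest to human CYP2D6. Its level was 177, 204 and 199.9 CPM in WT females and 205, 232 and 164 CPM in WT males. ESR1KO females had 110.4, 141, 199, 203 and 212 CPM, and ESR1KO males had 201, 188, 228 and 230 CPM. Only ESR1KO females 1 and 2 were below the lowest WT value, 164 CPM, and otherwise the groups covered a common range. The sex difference was -0.05 in WT mice (interval -0.48 to 0.39) and -0.29 in ESR1KO mice (interval -0.65 to 0.06, adjusted p = 0.376, and -0.05 with adjusted p = 0.903 without ESR1KO females 1 and 2). The genotype differences were -0.16 in females (adjusted p = 0.634, and 0.08 with adjusted p = 0.747 without ESR1KO females 1 and 2) and 0.08 in males (adjusted p = 0.919).

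Cyp2d26, at the far end of the cluster, was highest in WT females, the group in which Cyp2d9 was lowest. WT females had 863, 769 and 834 CPM and WT males 737, 639 and 566 CPM. ESR1KO females had 377, 444, 668, 685 and 754 CPM, and ESR1KO males 668, 649, 751 and 671 CPM. WT females were above all other mice, with no overlap. Neither difference passed: it was 0.34 between WT females and WT males (SE 0.21, adjusted p = 0.438), and -0.49 between ESR1KO and WT females (SE 0.18, adjusted p = 0.128). Without ESR1KO females 1 and 2 the latter was -0.23 (adjusted p = 0.24). The female genotype effect less the male one was -0.57 (interval -1.14 to 0.00, adjusted p = 0.351), and -0.31 (adjusted p = 0.35) without that pair.

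Cyp2d40 was at 46.2 to 56.2 CPM in WT females, 55.5 to 83.4 in WT males, 29.4 to 60.2 in ESR1KO females and 50.0 to 66.6 in ESR1KO males. Neighbouring groups overlapped. The largest difference was between ESR1KO females and WT males (-0.60, SE 0.20, adjusted p = 0.124), and it passed only where no filter on low counts was applied (-0.62, adjusted p = 0.0403). Leaving out ESR1KO females 1 and 2 gave -0.38 (adjusted p = 0.275). The WT sex difference was -0.47 (adjusted p = 0.285).

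**Figure D2:**
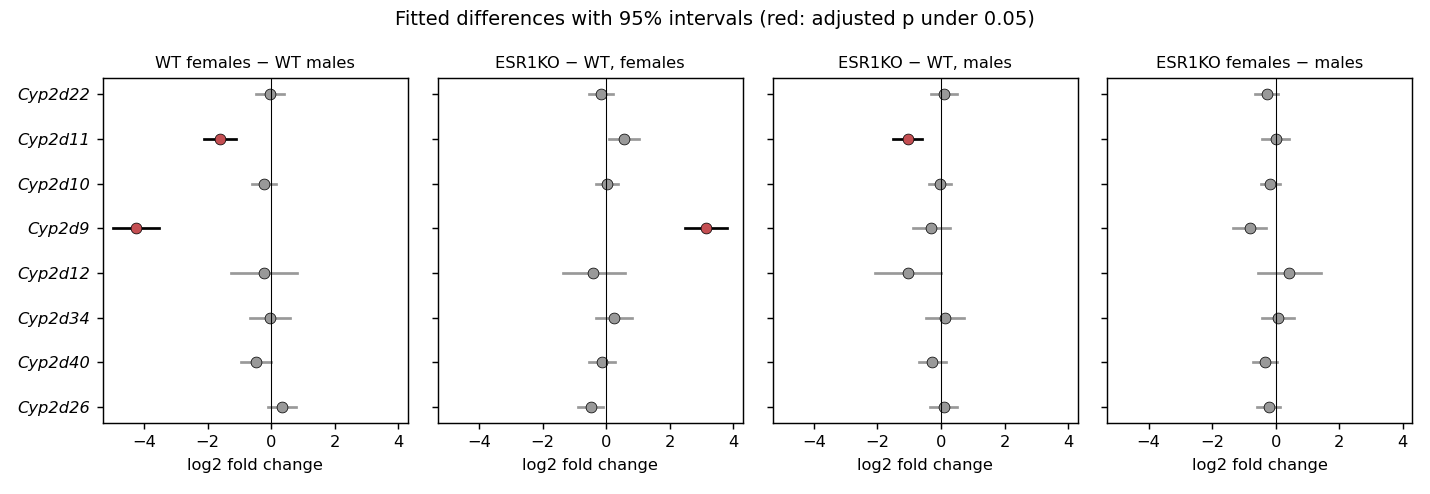
Log2 fold change (horizontal axis) of each member in 4 comparisons, with unadjusted 95% intervals as lines and members in chromosomal order. Red points passed at adjusted p under 0.05. They are Cyp2d9 and Cyp2d11 between WT females and WT males, Cyp2d9 between genotypes in females and Cyp2d11 between genotypes in males, and none between ESR1KO females and males.

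Counted over the 8 members, 0 were higher and 2 were lower in WT females than in WT males by edgeR, where 2.67% of all tested genes were higher and 2.2% lower. At unadjusted p under 0.05 there were 0 higher and 3 lower, where 17.3% of all tested genes differed in either direction, and DESeq2 called 0 and 2. Groups did not overlap for 3 members, against 30.1% of all tested genes. The median log2 fold change of the members was -0.23, beside 0.01 over all tested genes.

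Between genotypes in females, 1 member rose and 0 fell, where 3.14% of tested genes rose and 2.57% fell. At unadjusted p 2 were higher and 1 lower (22.5% of all tested genes in either direction), DESeq2 called 1 and 0, and groups did not overlap for 2 members (15.6% of all genes). In males 0 rose and 1 fell, where 0.833% of tested genes rose and 0.583% fell. At unadjusted p the counts in males were 0 and 2 (11.9% of all tested genes), DESeq2 called 0 and 1, and 1 member did not overlap (15.9% of all genes). The member medians were -0.05 in females and -0.15 in males, both beside 0 over all genes.

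Between ESR1KO females and ESR1KO males 0 members passed by edgeR, where 0.159% of tested genes were higher and 0.113% lower. Cyp2d9 alone had an unadjusted p under 0.05, as had 17.5% of all tested genes, and alone was called by DESeq2, and 1 member did not overlap (5.22% of all genes). Compared to WT males, ESR1KO females had 0 members higher and 2 lower, where 1.38% and 1.23% of tested genes were. At unadjusted p 0 were higher and 3 lower (17.4% of all tested genes), DESeq2 called 0 and 2, and 2 members did not overlap (9.91% of all genes). The signed genotype effect, females less males, passed as positive for 2 members and negative for 0 (1.02% and 0.923% of tested genes). Unadjusted counts (14.3% of all tested genes) and DESeq2 counts were also 2 and 0. For Cyp2d11 the larger part was the fall in males (-1.04), beside 0.57 in females, which did not pass. When the log2 fold change also had to reach 1.5 in either direction, 2 members were called between WT females and WT males (1.81% of tested genes), 1 between genotypes in females (1.2%), 0 between genotypes in males (0.578%) and 2 in the test of unequal genotype effects (1.09%). With that minimum 0 were called between ESR1KO females and males of either genotype, where 0.142% of tested genes passed against ESR1KO males and 0.816% against WT males. These comparisons share groups and are not independent of each other. The shares of all tested genes at adjusted p are from edgeR. None was worked out for DESeq2, so the DESeq2 member counts have no background to be read against.

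Because Cyp2d9 is among the abundant members, the make-up of the Cyp2d RNA differed with it. Its share of all member counts was 5.07 ± 1.7% (SD, n = 3) in WT females and 51.3 ± 1.53% (n = 3) in WT males. It was 35.3 ± 4.4% (n = 5) in ESR1KO females and 45.9 ± 2.27% (n = 4) in ESR1KO males. Cyp2d26 had 19.2% in WT males, 46.4% in WT females, 22.3% in ESR1KO males and 26.2% in ESR1KO females, and these shares move against that of Cyp2d9 by construction. In the 3 ESR1KO females other than 1 and 2, the Cyp2d9 share was 36.6 ± 5.64% and the Cyp2d26 share 26.4%.

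The members together summed to 3378 ± 464 CPM in WT males, 1774 ± 41.9 in WT females, 3076 ± 217 in ESR1KO males and 2234 ± 625 in ESR1KO females. Without Cyp2d9 the sums were 1641 ± 203, 1683 ± 24.4, 1662 ± 73.9 and 1433 ± 355 CPM, in the same order. The ranges without Cyp2d9 overlapped in all groups, from 979 to 1819 CPM. With ESR1KO females 1 and 2 left out, the sums of that group were 2671 ± 238 CPM (n = 3) with Cyp2d9 and 1685 ± 86.3 CPM without it. Per kb of exon, the leading level in WT males was that of Cyp2d9, at 653 CPM per kb, before Cyp2d10 at 438 and Cyp2d26 at 361. In WT females Cyp2d26 led with 458 CPM per kb, followed by Cyp2d10 with 374, Cyp2d22 with 49.5 and Cyp2d9 with 34. Exon length here joins all annotated exons of a gene. It was 2658 bases for Cyp2d9 and 3909 for Cyp2d22, whose coding transcripts have 1712 and 2769 bases. For Cyp2d10 both lengths were 1648. The Cyp2d9 and Cyp2d22 levels per kb are therefore lower than they would be by transcript length.

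**Figure D3:**
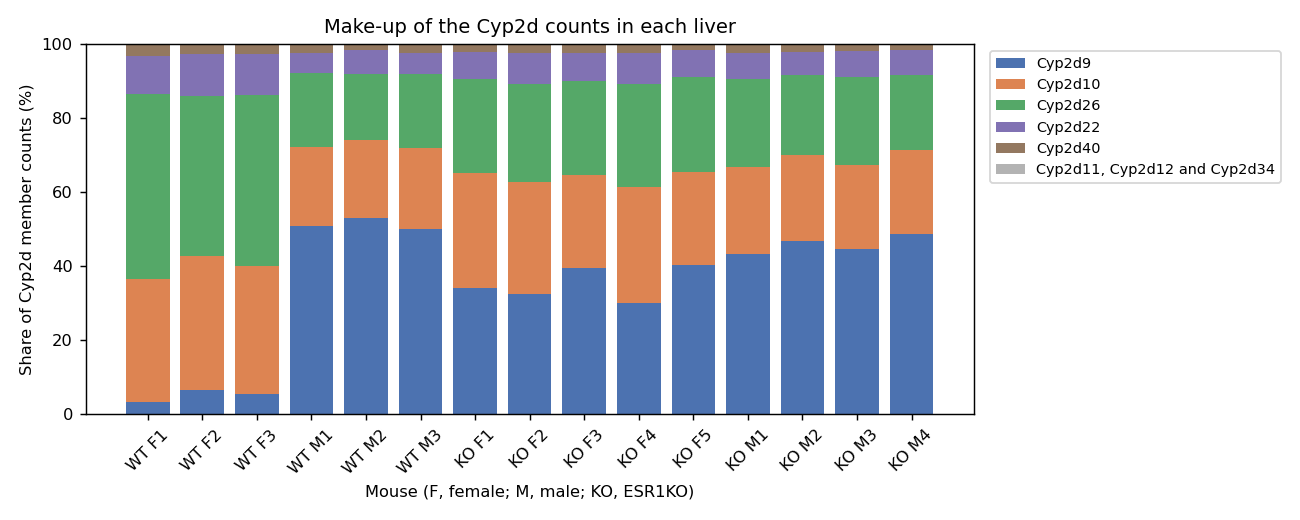
Share of the summed counts of the 8 members (vertical axis, percent) taken by each in every mouse. Cyp2d9 takes 5.07% on average in WT females, 35.3% in ESR1KO females, 45.9% in ESR1KO males and 51.3% in WT males. Cyp2d11, Cyp2d12 and Cyp2d34 are too low to be seen.

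The table held 10 further Cyp2d rows, all named as pseudogenes, of which 2 had no read in any library and 4 were tested. Cyp2d41-ps, between Cyp2d40 and Cyp2d26, showed differences in the same comparisons as Cyp2d11. Its range was 0.596 to 0.86 CPM in WT females, 2.3 to 5.01 in WT males, 0.679 to 2.14 in ESR1KO females and 0.853 to 1.55 in ESR1KO males, and WT males were above all other mice. It was lower in WT females than in WT males (-2.40, SE 0.39, adjusted p = 0.000868) and fell in ESR1KO males (-1.59, SE 0.34, adjusted p = 0.0248). In females the genotype difference was 0.66 (adjusted p = 0.301). The other tested rows, Cyp2d36-ps, Cyp2d37-ps and Cyp2d38-ps, reached means of 41.6 to 292 CPM and did not pass in any comparison.

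Of 46 genes within 250 kb of the cluster, 15 were tested. Between genotypes 1 rose and 1 fell in females, and 0 passed in males by edgeR (0 higher and 3 lower at unadjusted p). Srebf2, the regulator of cholesterol synthesis genes, fell in ESR1KO females (-0.79, SE 0.16, adjusted p = 0.00913, and -0.58 with adjusted p = 0.0233 without ESR1KO females 1 and 2). Gm49419, a processed pseudogene inside the annotated span of Cyp2d9 on the opposite strand, rose in ESR1KO females (adjusted p = 0.00301). It had 0 to 1 read in WT females, 14 to 31 in WT males, 5 to 13 in ESR1KO females and 9 to 17 in ESR1KO males. Gm49419 shares 0 exon bases with Cyp2d9. The annotated span is that of the GENCODE gene models, which start Cyp2d9 at base 82433437. The RefSeq start used for the promoter is at 82452377, and the midpoint of Gm49419 lies between these starts. The strand setting of the counting is not given in the sources used here, and whether unspliced Cyp2d9 reads entered the count of Gm49419 was not tested. Cyp2d9 also shares 186 exon bases with Gm46501, a pseudogene on its own strand.

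**Figure D4:**
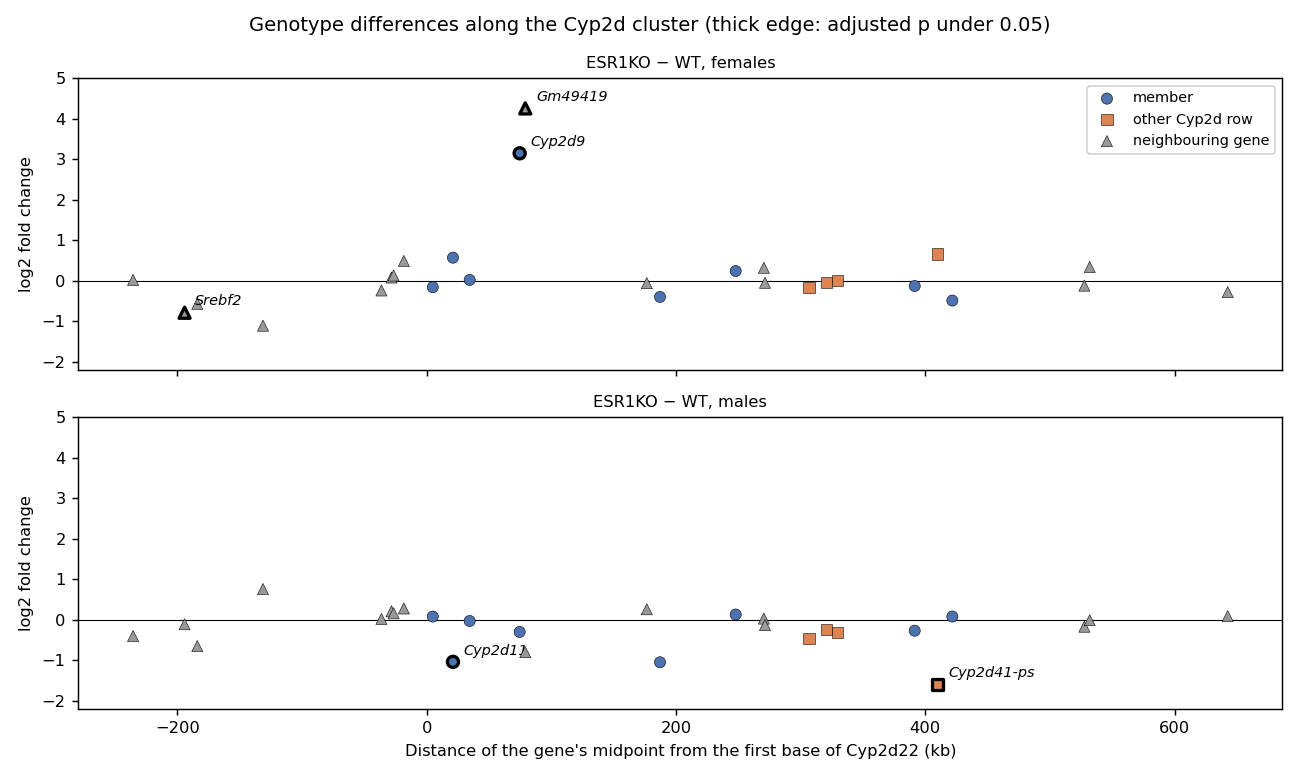
Log2 fold change between genotypes (vertical axis) in females (top) and males (bottom) of the tested genes in and around the cluster, by the distance of the midpoint of each gene from the first base of Cyp2d22 (horizontal axis, kb). Circles are members, squares other Cyp2d rows and triangles neighbouring genes, and thick edges mark adjusted p under 0.05. Cyp2d9 and Gm49419 rise in females, with Cyp2d10 and Cyp2d12 on either side near or below 0, and Cyp2d11 and Cyp2d41-ps fall in males. The value of Gm49419 depends on how reads near 0 are handled in the fit and is no estimate of size.

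The genes whose pattern was most like that of Cyp2d9, by Pearson's r of log2 CPM over the 15 libraries, were Ttc39c (0.973), Slc15a5 (0.967) and Nat8f5 (0.965). Ttc39c was at 784 ± 85.3 CPM in WT males, 615 ± 91.3 in ESR1KO males, 468 ± 89 in ESR1KO females and 168 ± 19.2 in WT females, the same order of groups as Cyp2d9. Slc15a5 had that order as well, but Nat8f5 was at 14 ± 3.82 CPM in ESR1KO males and 12.4 ± 4 in WT males. A shared order is part of what a high r selects. For Cyp2d11 the genes most alike were Serpina1e (0.91), a protease inhibitor, Scara5 (0.904), a ferritin receptor, and Cyp7b1 (0.904), an oxysterol hydroxylase. Cyp7b1 was at 722 ± 20.7 CPM in WT males, 108 ± 31.9 in ESR1KO males, 104 ± 32.1 in ESR1KO females and 52.9 ± 17.7 in WT females. Cyp7b1 and Cyp2d11 had every ESR1KO male below every WT male, whereas the males overlapped for Cyp2d9. Among members, r was 0.89 between Cyp2d22 and Cyp2d10, 0.80 between Cyp2d26 and Cyp2d22 and 0.69 between Cyp2d11 and Cyp2d9. These are descriptions over libraries that fall into 4 groups.

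Of 18 genes that give P450 enzymes their electrons and heme, 1 fell and 0 rose in ESR1KO compared to WT females. It was Por, the P450 oxidoreductase that serves all Cyp2d enzymes (-0.96, SE 0.24, adjusted p = 0.0301), and the call was lost without ESR1KO females 1 and 2 (-0.70, adjusted p = 0.108). Por was at 308 ± 77.6 CPM in WT males, 539 ± 46.2 in WT females, 319 ± 91.2 in ESR1KO males and 277 ± 84.2 in ESR1KO females. No other comparison gave a call in this list, with 25 of 108 tests over the 6 comparisons at unadjusted p under 0.05. Of 17 factors tied to Cyp2d or to sex-biased liver transcription, 0 rose and 2 fell in ESR1KO females, and 0 passed in ESR1KO males (0 higher and 2 lower at unadjusted p). Those that fell were Cux2 (-3.32, adjusted p = 8.78e-05), a repressor of male-biased genes in female liver, and Stat5a (-0.84, adjusted p = 0.0357), a mediator of growth hormone signals. Without that pair of mice Cux2 was at -3.06 (adjusted p = 0.00146), and the Stat5a call was lost (-0.58, adjusted p = 0.101). Gabpa, chosen after its values were seen because GABP is known for elements like the capital letters above, differed by 0.18 in females (adjusted p = 0.309) and -0.01 in males (adjusted p = 0.991). The part of these factors in the Cyp2d9 levels was not tested.

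Among 30 tested genes of the other Cyp2 subfamilies, 13 were higher and 4 lower in WT females than in WT males. Between genotypes, 3 rose and 10 fell in females and 6 rose and 0 fell in males, with 7 higher and 3 lower in males at unadjusted p. None was lower in ESR1KO females than in ESR1KO males and 5 were higher. The Cyp2d members, with 0 called female-biased in WT livers, are set beside these counts without a test of the difference.

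Liver cell markers were checked because they could move with the members. The 5 hepatocyte markers were present in every library, with sums of 95255 to 105129 CPM in WT females, 69829 to 71581 in WT males, 77999 to 103631 in ESR1KO females and 83436 to 91909 in ESR1KO males. Only Alb, higher in WT females than WT males (0.66, adjusted p = 0.0382), passed in that list. The hepatocyte sums are mostly Alb, whose means were 86414 CPM in WT females and 54550.3 CPM in WT males. Of 6 pericentral markers, with sums of 7911 to 9961, 7515 to 8484, 4211 to 8733 and 6600.3 to 7859.9 CPM in the same order of groups, only Cyp1a2 passed, falling in ESR1KO females (-0.89, adjusted p = 0.0486) and lower there than in WT males. Both Cyp1a2 calls were lost without ESR1KO females 1 and 2 (-0.58, adjusted p = 0.129, and -0.70, adjusted p = 0.0947). Of 6 periportal markers, with sums of 5927 to 8717, 6588 to 7888, 4349 to 6298 and 4866 to 7521 CPM, only Cyp2f2 passed, lower in WT females than in WT males (-0.95, adjusted p = 0.0123) and in ESR1KO females than in WT males. Their part in the member differences was not tested.

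Other cell types were low beside hepatocytes. Of 5 bile duct markers, Epcam rose in ESR1KO males (0.95, adjusted p = 0.03), as did Krt19 (1.23, adjusted p = 0.0307), and Spp1 rose in ESR1KO females (0.60, adjusted p = 0.0272), while list sums stayed between 32.4 and 59.3 CPM. The Spp1 call was lost without ESR1KO females 1 and 2 (0.60, adjusted p = 0.0579). Epcam was higher and Sox9 lower in WT females than in WT males. Of 5 macrophage markers only Vsig4 passed, higher in ESR1KO females than in males of either genotype (against WT males, adjusted p = 0.0383, and 0.0542 without that pair), and list sums were 227 to 343 CPM. Endothelial, stellate cell and lymphocyte lists had 0 calls by edgeR in 30 tests each, with 4, 4 and 2 at unadjusted p, and sums of 269 to 429, 353 to 493 and 19.9 to 36.6 CPM. Of 3 erythroid markers Alas2 passed, lower in WT females (-2.97, adjusted p = 2.26e-06) and raised in ESR1KO females (2.56, adjusted p = 9.34e-06), both in the direction of Cyp2d9. The latter was 2.63 (adjusted p = 0.000129) without ESR1KO females 1 and 2. The list sums ran from 64.9 to 651 CPM, and the hemoglobin genes did not pass. Of 4 pancreatic markers 2 were at 0 in every library, and Cpa1 had at most 1 read in a library. Only Cela1, at 12.8 to 35 CPM, was tested, and it fell in ESR1KO males (-0.99, adjusted p = 0.00804). The part of these cell types was not tested.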

How the data were processed

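Whole-gene read counts were deposited by the authors as 1 table of raw counts for 15 liver libraries. Per the labels, ribosomal RNA was depleted and libraries made with a TruSeq kit. Reads were trimmed with Trimmomatic 0.36, aligned to GRCm38 with STAR and counted with HTSeq 0.6.0, a version that differs between sources. The annotation release, strand setting and handling of reads with several matches are not given in the sources used here. A second sequencing run was made for libraries with few reads, and which ones is not given, so no value within a run could be made. Totals were 27799061 to 78624766 counts, and low read numbers limit Cyp2d11, Cyp2d12 and Cyp2d34.

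All tests used edgeR 4.0.16 in R 4.3.3 on the counts as deposited, with filterByExpr, TMM factors (0.957 to 1.035), 1 mean per group over all 15 libraries, quasi-likelihood F tests and adjustment over 17655 genes. Alternatives were DESeq2 1.42.0, other scalings and filters, a block on replicate number, fits of the compared groups alone, a minimum log2 fold change of 1.5 and each mouse left out. Log2 CPM for likeness used a prior count of 2. The fit was tested on counts simulated for each of the 6 comparisons, with 200 genes above 5 CPM changed 4-fold among 17387 to 17466 tested genes, and it recovered 198 to 200 of the 200 with 7 to 23 false calls. Smaller changes, changes in lower genes such as Cyp2d11, and mice that stand apart were not simulated. Replicates are separate mice by label, and no pair agreed within sampling noise. Positions and exon lengths came from GENCODE gene models and promoters from RefSeq, both on GRCm38. Named were all members, other Cyp2d rows above 1 CPM, up to 4 list genes by smallest p past the threshold in a genotype comparison, and the 3 genes most like each member that passed in one. Marker genes that passed were named as well. The members and lists were chosen with earlier results of these data known.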

Additional observations from a re-analysis of the deposited data

Results flagged for a closer look

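For 2 members the effect of genotype was unequal in females and males, by the test of that difference itself. For Cyp2d9 it was 3.45 higher on the log2 scale in females than in males (adjusted p = 7.12e-05, edgeR), with a change in 5 of 5 ESR1KO females against all WT females. For Cyp2d11 it was 1.61 higher (adjusted p = 0.00945), with ESR1KO males below all WT males in 4 of 4. For both, WT males were above WT females. No single mouse stood out from its own group among the 16 groups of 4 or 5 mice examined for the members. That comparison looks at 1 mouse at a time and cannot see a pair such as ESR1KO females 1 and 2.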

How the results depend on the processing

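The settings tried gave 1089 values for single members, of which 1035 kept their direction and their side of the threshold. For Cyp2d9 this held in every setting for the sex difference in WT mice (adjusted p at most 0.000111), for the rise in ESR1KO females (at most 0.00077) and for the difference between the sexes in the genotype effect (at most 0.000445). Cyp2d12 fell below the filter at 1 CPM in 3 libraries. The counts moved as follows. Members lower in ESR1KO females than in ESR1KO males went from 0 to 1 with DESeq2 and with no filter on low counts. Members that fell in ESR1KO males went from 1 to 0 with a minimum log2 fold change of 1.5, and were 0 to 1 with single mice left out. Members lower in ESR1KO females than in WT males went from 2 to 1 with only the groups compared and with ESR1KO females 1 and 2 left out, a setting chosen after seeing the data, from 2 to 0 with the minimum fold change, and were 0 to 2 with single mice left out. The calls lost there are those of Cyp2d9 and Cyp2d11 named above.

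Replicate numbers did not pair the mice: same-numbered mice deviated together with r of -0.19 to 0.14, and at most 3 of 6 correlated best with their own number. With a replicate block, members that fell in ESR1KO males went from 1 to 0 (Cyp2d11, adjusted p = 0.0805). Members that passed with a positive genotype effect, females less males, went from 2 to 1 (Cyp2d11, 1.59, adjusted p = 0.0515). With this block the sign also turned for Cyp2d10 between genotypes in females (-0.14) and in the genotype effect by sex (-0.02), for Cyp2d22 between genotypes in males (-0.01), and for Cyp2d34 between ESR1KO females and ESR1KO males (-0.13), against WT males (-0.02) and in the genotype effect by sex (-0.06).

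All 36 values that turned their sign were of members that did not pass in the comparison. Without ESR1KO females 1 and 2 these were Cyp2d10 (0.03) and Cyp2d26 (0.04) against ESR1KO males, Cyp2d22 (0.08) and Cyp2d40 (0.10) against WT females, and Cyp2d22 (0.03) and Cyp2d26 (0.12) against WT males. With total counts Cyp2d34 turned in the WT sex difference (0.01). In the genotype difference in females, the range with single mice left out was Cyp2d10 -0.06 to 0.12. In the genotype difference in males, the ranges with single mice left out were Cyp2d10 -0.13 to 0.04, Cyp2d22 -0.04 to 0.20 and Cyp2d26 -0.01 to 0.18. In the genotype effect by sex, the ranges with single mice left out were Cyp2d10 -0.03 to 0.15, Cyp2d34 -0.11 to 0.46 and Cyp2d40 -0.02 to 0.27. In the WT sex difference, the ranges with single mice left out were Cyp2d12 -0.65 to 0.43, Cyp2d22 -0.17 to 0.07 and Cyp2d34 -0.39 to 0.17. In ESR1KO females against WT males, the ranges with single mice left out were Cyp2d12 -1.05 to 0.03 and Cyp2d34 -0.01 to 0.32. In ESR1KO females against ESR1KO males, the range with single mice left out was Cyp2d34 -0.14 to 0.19. The cause of these moves was not tested.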
